A study of Rattus norvegicus with 6 samples.

Results

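The 81 genes described here encode the nuclear-encoded subunits of oxidative phosphorylation. They were chosen by symbol alone, as the genes whose symbol begins with Nduf and a subunit letter and number, Uqcr, Cox4 to Cox8 or Atp5, or is Sdha, Sdhb, Sdhc, Sdhd, Cyc1 or Cycs, and they make up 81 of the 14475 genes measured. By symbol, 36 belonged to complex I, 4 to complex II, 8 to complex III, 12 to complex IV and 20 to complex V, and Cycs, the mobile electron carrier cytochrome c, was kept on its own. Ndufa4 and its paralog Ndufa4l2 were counted with complex I by symbol, although the Ndufa4 protein is known as a subunit of complex IV. The isoform genes Cox6b2, Cox7a1, Cox7b2, Cox8a and Cox8b were not analysed here.

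Vascular smooth muscle (VSM) cells were grown in culture from soleus feed arteries (SFA), the vessels that carry blood to the soleus muscle, of male Fischer 344 rats. Young rats were 4 months old and old rats were 24 months old, with n = 3 rats and 3 libraries of polyadenylated RNA per group. No allele or agent is named for either group. Both groups were cultured in the same serum-containing medium, so the values describe cells in culture and not the artery wall. The comparison asks which transcripts differ with the age of the donor.

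Oxidative phosphorylation is carried by 5 protein complexes of the inner mitochondrial membrane. Complexes I and II pass electrons from NADH and succinate to ubiquinone, complex III passes them on to cytochrome c, and complex IV hands them to oxygen. Complexes I, III and IV pump protons as they do so, and complex V, the ATP synthase, uses the returning protons to make ATP. Most subunits are encoded in the nucleus and imported, whereas a small set is encoded by mitochondrial DNA. Several nuclear subunits have a paralog that takes its place in heart, skeletal muscle or lung, or when oxygen is low.

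Counts on genes summed to between 44.2M and 59.7M per library, and the 81 members took 0.523% to 0.633% of them. Contractile markers of smooth muscle (Acta2, Myh11 and 8 others) summed to 11277 to 21203 normalized CPM (counts scaled to library size) in young and to 3472 to 5600 CPM in old libraries, with all 10 lower in old. Fibroblast markers summed to 15937 to 21899 CPM in young and to 30289 to 34029 CPM in old, with 9 of 10 higher in old. Col1a1 alone made up most of that sum, with 14928 to 21235 CPM in young and 29272 to 32726 CPM in old. Skeletal muscle markers, of which 10 of 20 were measured, summed to 185 to 399 CPM in young and to 47.8 to 80.3 CPM in old, with 8 lower in old and 2 higher (Tnnt3 and Neb). All old libraries were below all young ones for 3 of them, Acta1, Myh1 and Myh2, which carried the sum, beside 14.7% of all genes. Endothelial markers, of which 7 of 10 were measured, summed to 36.1 to 45.4 CPM in young and to 33.0 to 44.4 CPM in old. Of these, 4 were lower in old and 3 higher. Egfl7 and Tek had the highest means, and Pecam1 and Vwf were below 1 CPM on average in both groups. The groups did not overlap for 1, Erg, with 2.46, 6.85 and 3.44 CPM in young and 0.362, 0.904 and 1.85 CPM in old. Macrophage, adipocyte and Schwann cell markers were measured for 2 of 10, 2 of 8 and 3 of 6 genes and summed to at most 86.4 CPM per list in any library. The part of these marker differences in the values below was not tested. In bulk RNA, fewer cells of a type and less RNA per cell cannot be told apart.

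Most members were slightly lower in old than in young VSM cells. The log2 fold change (old over young) was below 0 for 65 of the 81 members (80.2%), whereas it was below 0 for 48% of all genes. The median over the members was -0.11, beside 0.018 over all genes and -0.0036 over the 8843 genes at 10 CPM or more. The sizes were small, with a median absolute log2 fold change of 0.12 for members and 0.26 for all genes, and 76 members (93.8%) had a log2 fold change between -0.5 and 0.5, beside 71.4% of all genes. For 58 members the whole 95% interval of the log2 fold change lay between -0.5 and 0.5, which held for 29.3% of all genes. At 10 CPM or more, these counts were 69 and 58 of 71 members, beside 7148 and 3959 of 8843 genes. The median absolute log2 fold change at that level was 0.11 for members and 0.20 for genes. Only Ndufa4l2, Cox4i2 and Cox6a2 were 1 or more from 0 on the log2 scale, a size reached by 11.4% of all genes, and all 3 were higher in old.

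No member was called a differentially expressed gene (DEG) by edgeR's quasi-likelihood test (adjusted p below 0.05, with the log2 fold change 1 or more from 0), and the lowest adjusted p among members was 0.0930, for Ndufa4l2. The same test called 0.00691% of all genes, that is 1 gene. At an unadjusted p below 0.05, edgeR gave 5 members as lower in old (Cycs, Uqcrb, Uqcrc1, Ndufb6 and Ndufv2), beside 11.5% of all genes, and 2 as higher (Ndufa4l2 and Cox4i2), beside 11.2%. Both shares of members were below those of all genes. DESeq2 with the same thresholds called 5.56% of all genes and 2 members, Ndufa4l2 and Cox4i2, both upregulated in old. DESeq2 without a threshold on the fold change also gave Cycs and Uqcrb, both lower in old. The share of all genes without that threshold was not counted, and it cannot be below 5.56%. These 2 calls are thus not read as a result about the members as a set. By limma-voom, 0 members and 0 of all genes were called.

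**Figure D1:**
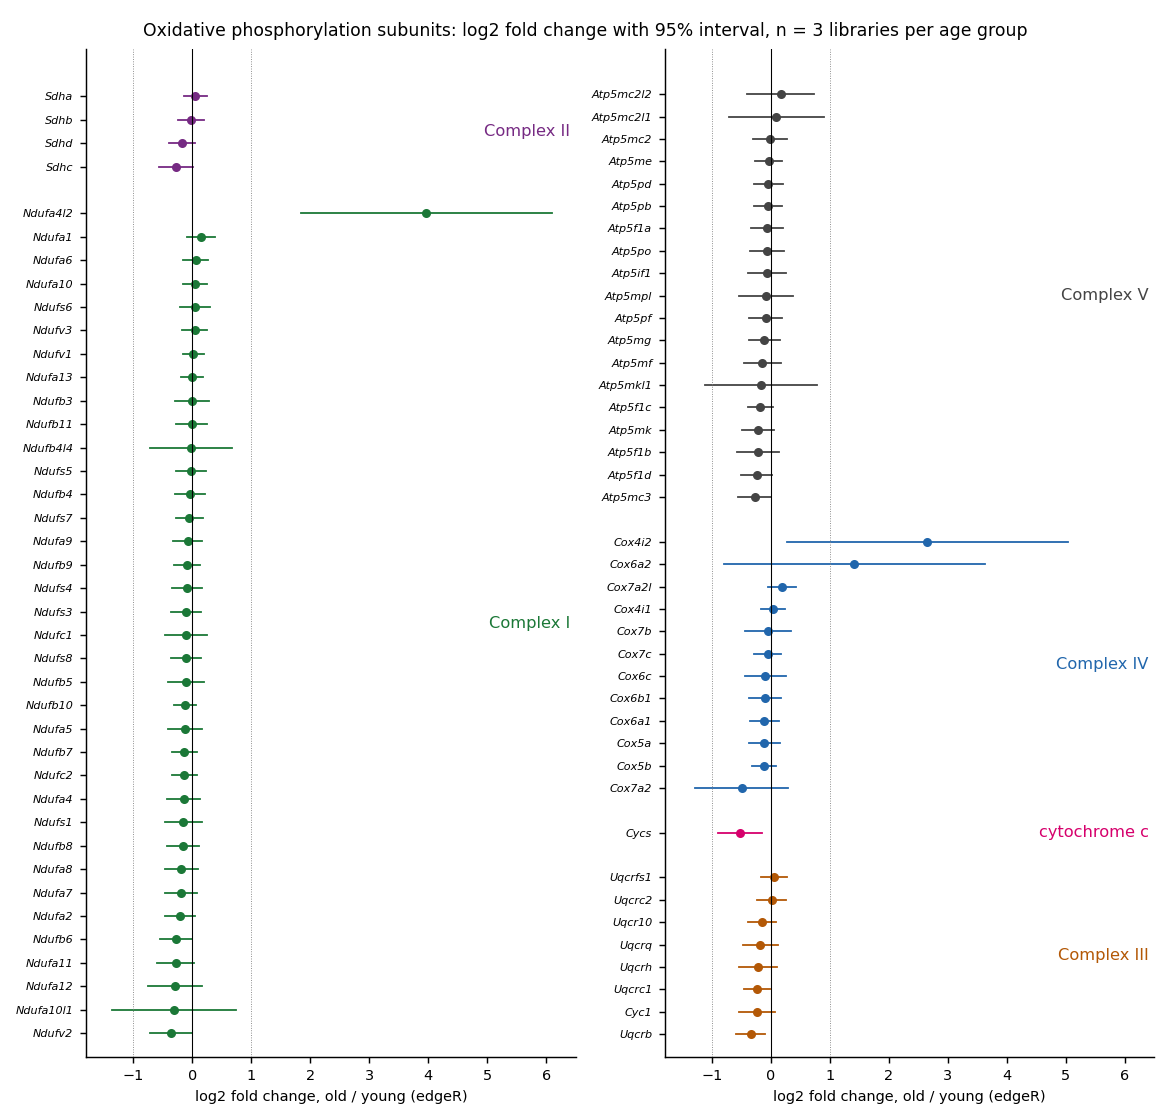
Log2 fold change (old over young, edgeR, horizontal axis) of 80 of the 81 members with its 95% interval, grouped by complex, with dotted lines at -1 and 1. Most points lie just left of 0, and Ndufa4l2, Cox4i2 and Cox6a2 are the 3 points beyond 1.

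The lower sum over the members in old came from old replicates 2 and 3. Summed over all members, young replicates 1, 2 and 3 held 6198, 6168 and 6287 CPM and old replicates 1, 2 and 3 held 6364, 5667 and 5277 CPM. Old replicate 1 was thus above all 3 young libraries and the other two old libraries were below them, so the groups overlapped. The mean was 6218 ± 61.6 CPM (SD, n = 3) in young and 5769 ± 551 CPM in old, a ratio of 0.928. Old replicate 1 was the highest of the old libraries for 62 of the 81 members, whereas this was so for 36% of all genes and for 3602 of the 8843 genes at 10 CPM or more.

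Counts of members whose groups did not overlap depended on that library. All 3 old libraries were below all 3 young libraries for 10 members (among them Ndufa11, Ndufb6, Ndufb10, Uqcrb, Uqcrc1, Cycs, Atp5mc3, Atp5f1c and Atp5f1d), close to the 14.7% of all genes. All 3 old libraries were above all 3 young ones for 2 members (Ndufa1 and Ndufa4l2), beside 14.5% of all genes, and the groups overlapped for 69. Without old replicate 1, the old libraries were below all young ones for 47 of the 81 members, beside 25.8% of all genes and 2708 of the 8843 genes at 10 CPM or more. These 47 comprised 19 of 36 in complex I, 2 of 4 in complex II, 5 of 8 in complex III, 6 of 12 in complex IV, 14 of 20 in complex V and Cycs. edgeR called no member a DEG without old replicate 1 either, although it then called 732 genes.

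Members also spread more widely among old than among young libraries. The median coefficient of variation over members was 4.27% in young and 11.1% in old. Over the 71 members at 10 CPM or more it was 3.56% and 10.7%, beside 8.15% and 12.5% over all genes at that level. The coefficient was higher among old libraries for 68 of the 81 members, which held for 65.5% of all genes. At 10 CPM or more it was higher for 63 of 71 members and for 6140 of 8843 genes. Young libraries were thus closer to each other for these genes than old libraries were.

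**Figure D2:**
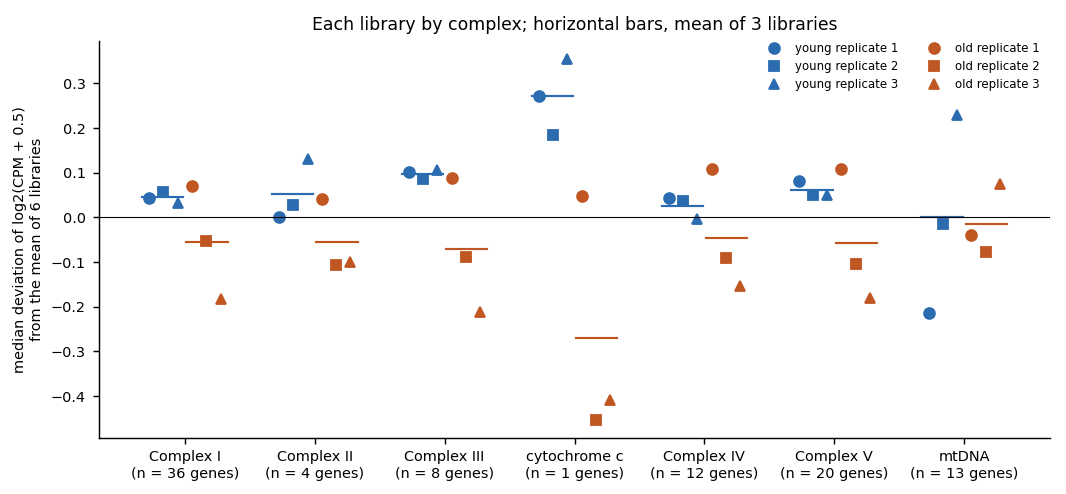
Median over the genes of each complex of the deviation of log2(CPM + 0.5) from the mean of the 6 libraries (vertical axis), for each library, with bars at the mean of 3 libraries per group. In complexes I to V old replicate 1 (orange circle) sits with the young libraries and old replicates 2 and 3 below 0, whereas the 13 genes of mitochondrial DNA (mtDNA) show no such order.

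Complex I, the NADH dehydrogenase, had 29 of 36 genes lower in old. The median of their log2 fold changes was -0.11 and the range -0.36 to 3.97, with Ndufa4l2 at the upper end. Its summed level was 1605, 1613 and 1627 CPM in young and 1653, 1532 and 1393 CPM in old replicates 1, 2 and 3. The core subunits, which hold the flavin and the iron-sulfur clusters of the electron path, and the accessory subunits around them had like medians (-0.11 for 6 core genes, 5 lower, and -0.098 for 30 accessory genes, 24 lower).

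Among core subunits, Ndufv1, which binds the flavin that accepts electrons from NADH, was the flattest. It held 67.8, 68.4 and 67.5 CPM in young and 67.7, 70.4 and 67.7 CPM in old (log2 fold change 0.016 ± 0.074, SE). Its partner in the NADH-oxidizing module, the iron-sulfur protein Ndufv2, had the lowest log2 fold change of complex I, -0.36 ± 0.15 (edgeR adjusted p = 0.214). Ndufv2 held 70.6, 76.3 and 90.8 CPM in young and 72.0, 57.9 and 55.3 CPM in old, so old replicate 1 overlapped the young range. The ratio of these partners was not tested. The iron-sulfur proteins Ndufs1, Ndufs7 and Ndufs8 and the core subunit Ndufs3 had log2 fold changes of -0.15, -0.048, -0.11 and -0.10, with groups that overlapped in each case. Among accessory subunits other than Ndufa4l2, log2 fold changes ran from -0.32 (Ndufa10l1, below 1 CPM in every library) to 0.15 (Ndufa1), and Ndufa1 held 13.1 to 13.8 CPM in young and 14.4 to 15.8 CPM in old.

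Ndufa4l2 was the member with the largest difference. It encodes a paralog of Ndufa4 and is known as a gene induced by low oxygen. It held 2.66, 1.70 and 0.936 CPM in young replicates 1, 2 and 3 (120, 102 and 46 counts) and 20.8, 56.0 and 5.75 CPM in old replicates 1, 2 and 3 (1034, 2913 and 308 counts). Every old library was above every young one, and the old libraries themselves ranged from 5.75 to 56.0 CPM. The mean was 1.76 ± 0.863 CPM in young and 27.5 ± 25.8 CPM in old, a fitted 15.6-fold difference. The log2 fold change was 3.97 ± 0.88 (SE, 95% interval 1.84 to 6.09), with an adjusted p of 0.0930 by edgeR, 3.82e-06 by DESeq2 and 0.197 by limma-voom, and ran from 2.91 to 4.45 when each library was left out in turn.

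Ndufa4 itself, the constitutive gene, held 68.8, 66.7 and 63.6 CPM in young and 68.5, 58.2 and 52.8 CPM in old (log2 fold change -0.15 ± 0.12, edgeR adjusted p = 0.466). Its groups overlapped, in contrast to those of its paralog. Within each library, the log2 ratio of Ndufa4l2 to Ndufa4 counts was -4.69, -5.29 and -6.07 in young and -1.72, -0.055 and -3.20 in old. Ratios of counts within a library do not depend on library scaling, but transcript lengths were not corrected for, so only the difference between groups is read from them. That difference was 3.69 on the log2 scale, and its exact two-sided permutation p of 0.10 is the smallest that 3 against 3 libraries can give (Benjamini-Hochberg adjusted p = 0.167 over the 5 isoform pairs tested, of 9 planned).

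**Figure D3:**
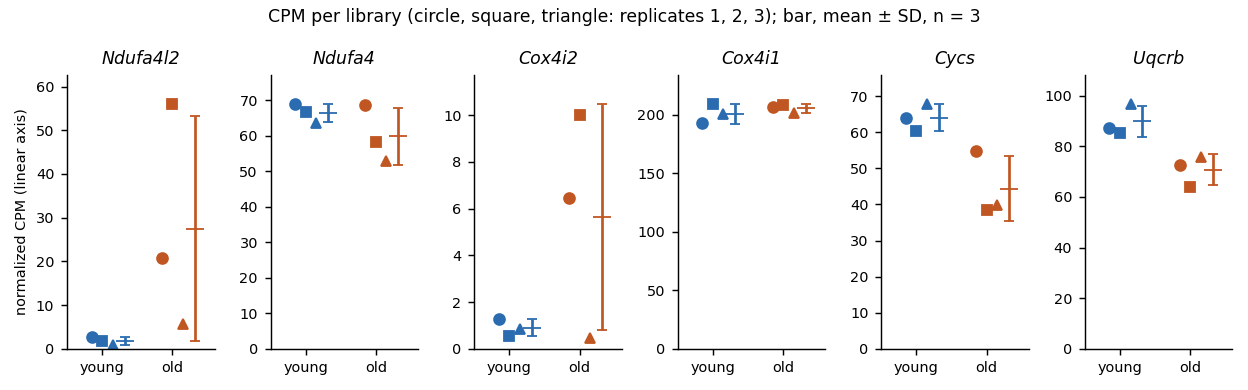
Normalized CPM (vertical axis from 0, or just below it where the error bar requires it, linear, a separate scale per gene) of 6 members in each young (blue) and old (orange) library, with mean ± SD, n = 3. Ndufa4l2 is higher in every old library and Cox4i2 in 2 of 3, their constitutive partners Ndufa4 and Cox4i1 lie close together, and Cycs and Uqcrb are lower in every old library.

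Complex II, the succinate dehydrogenase that links the tricarboxylic acid cycle to the electron chain, had 3 of 4 genes lower in old and a median log2 fold change of -0.098. Its summed level was 304, 320 and 333 CPM in young and 315, 293 and 289 CPM in old. The flavoprotein Sdha (log2 fold change 0.054 ± 0.082) and the iron-sulfur protein Sdhb (-0.020 ± 0.091) were near 0. The membrane anchors that hold the ubiquinone site had lower values, -0.28 ± 0.12 for Sdhc and -0.18 ± 0.094 for Sdhd. Sdhc held 92.7, 100.1 and 106.6 CPM in young and 93.7, 79.0 and 74.5 CPM in old, and old replicate 1 alone lay within the young range (edgeR adjusted p = 0.227).

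Complex III, the cytochrome bc1 complex, had the lowest median of the 5 complexes, -0.20, with 6 of 8 genes lower in old and a range of -0.34 to 0.053. Its summed level was 679, 667 and 692 CPM in young and 667, 607 and 554 CPM in old. Whether this median differs from those of the other complexes was not tested. Uqcrb, which takes part in ubiquinone binding, had the lowest value. It held 87.3, 85.4 and 96.7 CPM in young and 72.8, 63.8 and 75.6 CPM in old, and the groups did not overlap. Its log2 fold change was -0.34 ± 0.10 (95% interval -0.59 to -0.095), with an adjusted p of 0.141 by edgeR and 0.0494 by DESeq2.

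The core protein Uqcrc1 also had groups that did not overlap, with 96.7, 97.0 and 101.6 CPM in young and 90.3, 84.0 and 77.1 CPM in old (log2 fold change -0.23 ± 0.092, edgeR adjusted p = 0.208). Its partner core protein Uqcrc2 had a log2 fold change of 0.010 ± 0.099 and the Rieske iron-sulfur protein Uqcrfs1 one of 0.053 ± 0.092, the highest of the complex. Cyc1, the cytochrome c1 that reduces cytochrome c, had a log2 fold change of -0.24 ± 0.12, and its groups overlapped through old replicate 1.

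Cycs, which encodes somatic cytochrome c, had the lowest log2 fold change of the members at 10 CPM or more. Cytochrome c carries electrons from complex III to complex IV and is also known for starting apoptosis when it is released. It held 64.0, 60.3 and 67.9 CPM in young and 54.8, 38.6 and 39.8 CPM in old. All old libraries were below all young libraries, with means of 64.1 ± 3.79 and 44.4 ± 9.05 CPM. The log2 fold change was -0.53 ± 0.15 (95% interval -0.90 to -0.16), with an adjusted p of 0.135 by edgeR, 0.0403 by DESeq2 and 0.124 by limma-voom, and ran from -0.71 without old replicate 1 to -0.44 without old replicate 2. It passed neither DEG threshold by edgeR with all libraries and missed the fold threshold by DESeq2. Without old replicate 1 its adjusted p by edgeR was 0.0278, past that threshold but not the one on the fold, and it was 0.265 to 0.298 when any other library was left out.

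Complex IV, the cytochrome c oxidase, had 8 of 12 genes lower in old, a median log2 fold change of -0.073 and a range of -0.50 to 2.65. Its summed level overlapped between groups, at 992, 1001 and 970 CPM in young and 1046, 953 and 921 CPM in old. The structural subunits Cox4i1, Cox5a and Cox5b had log2 fold changes of 0.035, -0.11 and -0.12. Cox7a2l, which is known for joining complexes III and IV into supercomplexes, had 131, 142 and 121 CPM in young and 141, 155 and 152 CPM in old (log2 fold change 0.19 ± 0.098, edgeR adjusted p = 0.298). The groups overlapped only through young replicate 2. The lowest value of the complex was that of Cox7a2 (-0.50 ± 0.33), which rested on 28 to 56 counts per library. How reads that match several places were counted is unstated in the sources used here, so low values of genes with near-identical copies, such as Cox7a2, are uncertain.

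Cox4i2, the isoform of subunit 4 known from lung and for a role under low oxygen, was the second-largest difference among members. It held 1.29, 0.565 and 0.855 CPM in young (58, 34 and 42 counts) and 6.47, 10.02 and 0.466 CPM in old (322, 521 and 25 counts). Old replicates 1 and 2 were above every young library and old replicate 3 was below every young library, so the groups overlapped. The log2 fold change was 2.65 ± 0.99 (95% interval 0.27 to 5.03), with an adjusted p of 0.192 by edgeR, 0.0274 by DESeq2 and 0.448 by limma-voom. DESeq2 called it without old replicate 3 and did not call it when any other library was left out.

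Cox4i1, the common isoform, held 192, 209 and 200 CPM in young and 206, 209 and 201 CPM in old. Its values thus lay within the same range in both groups. The log2 ratio of Cox4i2 to Cox4i1 counts was higher in old by 1.83 (exact two-sided permutation p = 0.40), and it was -4.99 and -4.38 in old replicates 1 and 2 but -8.73 in old replicate 3, beside -8.51 to -7.21 in young. Cox6a2, the heart and skeletal muscle isoform of subunit 6a, had 2, 6 and 27 counts in young and 22, 17 and 58 counts in old, and the log2 fold change was 1.41 ± 0.92 (edgeR adjusted p = 0.385). It was 3.02 without young replicate 3 and 0.73 without old replicate 3. It had passed the filter on low counts of the table mainly through its old libraries, and the groups overlapped. Its common partner Cox6a1 had a log2 fold change of -0.11, and the log2 ratio of Cox6a2 to Cox6a1 was higher in old by 1.99 (exact two-sided permutation p = 0.30). Of the 10 skeletal muscle markers measured, 8 were lower and 2 (Tnnt3 and Neb) higher in old, and their part in this value was not tested.

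Complex V, the ATP synthase, had 18 of 20 genes lower in old, the highest share of the 5 complexes. The median of their log2 fold changes was -0.088. Its summed level was 2553, 2507 and 2597 CPM in young and 2628, 2243 and 2080 CPM in old. The catalytic subunit Atp5f1b held 795, 781 and 857 CPM in young and 819, 679 and 595 CPM in old, and the groups overlapped through old replicate 1 (log2 fold change -0.22 ± 0.15, edgeR adjusted p = 0.413). Its partner Atp5f1a had a log2 fold change of -0.066 ± 0.11. Atp5f1c, the central shaft, was lower in all 3 old libraries (165.2, 162.7 and 158.4 CPM in young, 152.5, 141.1 and 134.9 CPM in old, log2 fold change -0.18 ± 0.087, edgeR adjusted p = 0.265). Atp5if1, the inhibitor that stops the enzyme from running backwards, had a log2 fold change of -0.068 ± 0.13.

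The ring of c subunits that turns in the membrane is encoded by several genes, among them Atp5mc2 and Atp5mc3, whose mature proteins are identical and which differ in their import sequences. Atp5mc3 held 123.0, 115.7 and 125.7 CPM in young and 115.5, 96.3 and 89.7 CPM in old, a log2 fold change of -0.27 ± 0.12 (edgeR adjusted p = 0.228), the lowest of complex V among members at 10 CPM or more. Atp5mc2 held 111.5, 105.3 and 107.1 CPM in young and 124.0, 103.6 and 93.5 CPM in old, a log2 fold change of -0.013 ± 0.12. Atp5mc3 thus did not overlap between groups, whereas Atp5mc2 did.

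Within each library, the log2 ratio of Atp5mc2 to Atp5mc3 counts was -0.14, -0.14 and -0.23 in young and 0.10, 0.10 and 0.059 in old. Old libraries were all above young ones, and here old replicate 1 lay with the other old libraries. The means were -0.17 ± 0.054 and 0.089 ± 0.026, a difference of 0.26 on the log2 scale with the smallest exact two-sided permutation p that 3 against 3 libraries can give, 0.10 (adjusted p = 0.167). The difference was between 0.23 and 0.28 under every alternative run. Put as a share of the reads of both genes, Atp5mc2 took 46.0% to 47.7% in young and 51.0% to 51.8% in old. The copies Atp5mc2l1 and Atp5mc2l2, the latter with the highest log2 fold change of the complex (0.16 ± 0.24), were below 4 CPM, and reads of Atp5mc2, Atp5mc3 and such copies may have been split or dropped in counting.

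**Figure D4:**
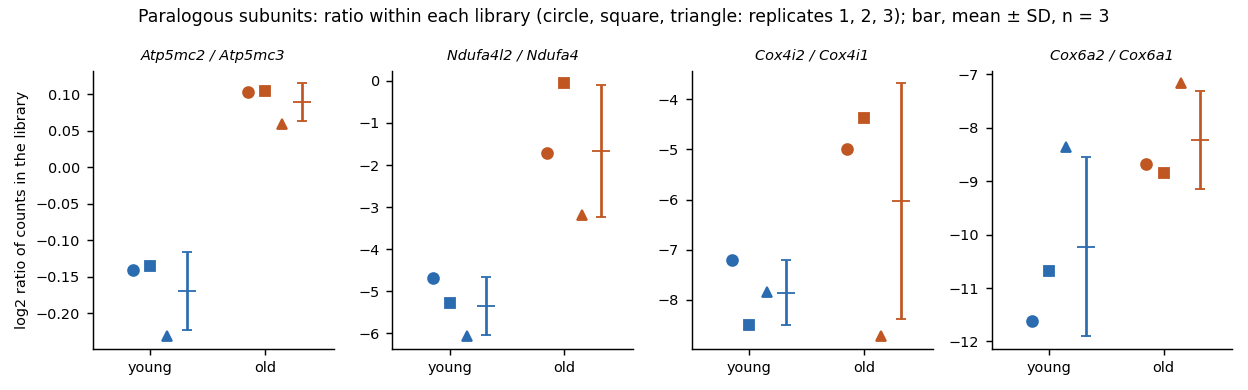
Log2 ratio of the counts of paralogous subunits within each library (vertical axis, a separate scale per pair; blue young, orange old) with mean ± SD, n = 3, for 4 of the 5 pairs tested. Old and young do not overlap for Atp5mc2/Atp5mc3 and Ndufa4l2/Ndufa4, and they overlap for Cox4i2/Cox4i1 and Cox6a2/Cox6a1.

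The 13 subunits encoded by mitochondrial DNA, which join the nuclear ones in complexes I, III, IV and V, had no common direction. Log2 fold changes were above 0 for 5 and below 0 for 8, with a median of -0.048, and no gene passed an unadjusted p below 0.05 or had groups that did not overlap. COX2 (0.50), ATP6 (0.44) and ATP8 (0.40) had the highest values and COX1 (-0.33) the lowest. Summed, they held 31712, 39010 and 38738 CPM in young and 34107, 32297 and 35281 CPM in old. Their coefficient of variation was higher among old libraries for 1 of 13, and old replicate 1 was the highest old library for 2 of 13, beside 68 and 62 of the 81 nuclear members.

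Genes of the tricarboxylic acid cycle, which supplies NADH and succinate to the chain, and of pyruvate dehydrogenase were counted together. Of these 17 genes, 14 were lower in old (median of the log2 fold changes -0.15), the pyruvate dehydrogenase genes Pdha1, Pdhb and Dlat among them. Pdha1 was near 0 (-0.021 ± 0.14), and 3 of the 17 were higher, Dld among them (0.071 ± 0.12). For 7 of the 17, Pdhb and Dlat among them, all old libraries were below all young ones, beside 14.7% of all genes. At an unadjusted edgeR p below 0.05, 4 were lower, beside 11.5% of all genes. Among these 4 were Idh3a (-0.46 ± 0.13, adjusted p of 0.126 by edgeR and 0.0283 by DESeq2) and Ogdh (-0.35 ± 0.10, 0.130 by edgeR and 0.0247 by DESeq2). Neither reached the fold threshold. Old replicate 1 was the highest old library for 14 of the 17. Of 7 genes listed for adenine nucleotide and phosphate exchange, 5 were measured (Slc25a4, Slc25a5, Vdac1, Vdac2 and Vdac3). The phosphate carrier Slc25a3 was not found by its symbol. All 5 were lower in old (median -0.30), including the ADP/ATP carrier Slc25a5. Slc25a5 held 169, 174 and 168 CPM in young and 150, 114 and 108 CPM in old (-0.46 ± 0.14). Its adjusted p was 0.146 by edgeR and 0.0499 by DESeq2, and it did not reach the fold threshold. Mitochondrial ribosomal protein genes had 48 of 68 lower in old (median -0.086). DESeq2 called 1 of the 68, lower in old, beside 5.56% of all genes in either direction.

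Assembly factors were evenly divided. Of the 14 assembly factors of complex I, 7 were lower and 7 higher in old (median 0.00093), and of the 27 for complexes II to V, 13 were lower and 14 higher (median 0.0065). Regulators of mitochondrial biogenesis were also evenly divided, 8 lower and 8 higher (median -0.0032). Among them, Gabpb1, a subunit of the factor GABP that binds ETS motifs, had 12.1, 12.2 and 13.1 CPM in young and 8.79, 9.52 and 6.88 CPM in old. Its log2 fold change was -0.57 ± 0.15 (adjusted p of 0.123 by edgeR and 0.0180 by DESeq2). The coactivator Pprc1 had a log2 fold change of -0.29 ± 0.080 (adjusted p of 0.126 by edgeR and 0.0176 by DESeq2). Neither reached the fold threshold. Nrf1 (-0.035), Gabpa (0.11), Tfam (0.074), Yy1 (0.064) and Esrra (-0.22) had edgeR adjusted p-values of 0.605 or more, and the coactivator Ppargc1a (0.64 ± 0.67) was below 3 CPM in every library.

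Promoters were examined because these genes are known to share control by a few factors. RefSeq sequences on build GRCr8, from 250 bases before to 50 bases after the start of transcription, were found for 70 of the 81 members and searched on both strands. The NRF1 motif GCGCNTGCG was in 22 of 70 member promoters (31.4%), beside 13% of the 10534 promoters of measured genes and 6.34% of all 27457 promoters. The YY1 motif AANATGGCG was in 24.3%, beside 6.17% and 3.33%, and the ESRRA motif AAGGTCA in 12.9%, beside 2.88% and 4.37%. The ETS motif CCGGAAGT was in 10%, beside 7.96% and 4.01%, and the Sp1 motif GGGCGG in 40%, beside 61.8% and 34.9%. By complex, the NRF1 motif was in 8 of 32 promoters of complex I, 2 of 4 of complex II, 2 of 6 of complex III, 1 of 9 of complex IV and 8 of 18 of complex V. A match is a description of these letters only. Cox4i2 had no entry.

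The 250 bases upstream of the start are given for the members on which the results above turn, with motif matches in capitals. Cycs (chr4:80984768-80985017, minus strand) holds an NRF1 match, as does Atp5mc2 (chr7:135678219-135678468, minus strand), where matches on both strands overlap. Atp5mc3 (chr3:79220665-79220914, minus strand) holds an ESRRA match and no NRF1 match. Ndufa4l2 (chr7:65241919-65242168, plus strand) holds 1 Sp1 match and none of the others. Whether any match bears on the values above was not tested.
Cycs: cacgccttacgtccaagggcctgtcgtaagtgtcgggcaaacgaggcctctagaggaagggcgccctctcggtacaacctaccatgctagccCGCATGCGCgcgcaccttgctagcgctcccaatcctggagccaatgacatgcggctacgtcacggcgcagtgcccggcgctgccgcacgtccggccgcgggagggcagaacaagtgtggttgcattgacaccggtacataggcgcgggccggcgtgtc
Atp5mc2: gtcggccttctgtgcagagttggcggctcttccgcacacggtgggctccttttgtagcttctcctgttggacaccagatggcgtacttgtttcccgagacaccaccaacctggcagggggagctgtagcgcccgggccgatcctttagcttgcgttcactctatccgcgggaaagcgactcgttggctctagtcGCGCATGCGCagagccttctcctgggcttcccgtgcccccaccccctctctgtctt
Atp5mc3: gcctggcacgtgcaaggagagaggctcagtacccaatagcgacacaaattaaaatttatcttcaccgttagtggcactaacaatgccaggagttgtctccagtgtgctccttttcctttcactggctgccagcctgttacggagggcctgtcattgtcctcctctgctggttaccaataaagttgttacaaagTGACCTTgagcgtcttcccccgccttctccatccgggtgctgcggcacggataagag
Ndufa4l2: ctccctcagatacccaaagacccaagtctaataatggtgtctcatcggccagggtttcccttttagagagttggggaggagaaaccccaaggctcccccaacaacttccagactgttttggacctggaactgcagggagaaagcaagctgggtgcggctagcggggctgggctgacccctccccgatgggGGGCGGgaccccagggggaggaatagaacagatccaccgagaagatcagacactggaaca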

How the data were processed

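RNA of cultured VSM cells from the SFA of 3 young and 3 old rats was measured. The authors deposited raw gene counts, not normalized, after trimming (Trim Galore 0.6.7 with cutadapt 3.5), alignment with STAR 2.7.10b and counting with featureCounts (Subread 2.0.8), per the submitters' processing notes. The Methods name the assembly Rnor 6.0 and its RefSeq annotation, whereas the rows carry Ensembl identifiers. How strand and multi-mapping reads were handled is not stated in the sources used here. Low counts were even in 68.7% to 71.1% of cases, as counting of both mates leaves, so counting error is larger than the counts imply. Totals were 44.2M to 59.7M per library.

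All 14475 genes were fitted in edgeR 4.0.16 (R 4.3.3, TMM, quasi-likelihood F test, Benjamini-Hochberg adjustment over all genes, age as the only term, young as reference), and member rows were read out. CPM values are counts scaled to TMM-adjusted library sizes, and SE and 95% intervals come from that fit. DESeq2 1.42.0, limma-voom (limma 3.58.1), RLE factors, library size only, 2 low-count filters, the replicate number as a block and each library left out were alternatives. Halved counts, and counts of non-overlapping members without each library, were added after the data had been seen. The steps were tested on simulated counts. Ratios of paralogs used counts plus 0.5 and an exact two-sided permutation test over libraries. Coordinates and promoters are RefSeq's on GRCr8, matched by symbol.

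Members and gene lists were chosen with earlier results of these data known. Named members were core subunits, isoform pairs, the highest and lowest log2 fold change of each complex, the 5 smallest p-values, members called by edgeR or DESeq2, Atp5if1 and Cox7a2l. Ndufb6, Ndufa1, Ndufa11, Ndufb10, Ndufa10l1, Atp5f1d, Atp5mc2l1 and genes outside the members were named after their values were seen. Of the sample columns, 0 were left unused. Of the members, 1 and its isoform pair are not reported here.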

Additional observations from a re-analysis of the deposited data

How the results depend on the processing

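Of the values recomputed under the alternatives, 600 stayed on the same side of 0 and of any threshold, or close to the reported value, 11 turned direction, 2 passed the threshold by DESeq2 alone and 11 counts or medians moved further. edgeR's 0 called members became 2 with DESeq2 (Ndufa4l2 and Cox4i2). DESeq2's 2 became 4 with no fold threshold, and 1 or 2 with libraries left out, where Cox6a2 took the place of Cox4i2 without young replicate 3. The shares of all genes that DESeq2 called under these alternatives were not counted. The replicate numbers of the labels are shared between groups, and the labels do not say what they stand for. Deviations of same-numbered libraries from their group means had correlations of 0.063, 0.31 and 0.29. Whether same-numbered libraries share a batch was not tested, and they were not treated as pairs in the main fit. With the replicate block DESeq2 called 1 member (Ndufa4l2) and edgeR 0. The number of members with every old below every young library was 11 to 47 when a library was left out. It was 16 without young replicate 3 and 47 without old replicate 1. Without old replicate 1 the share of all genes was 25.8%, and it was not counted for the other libraries left out. Fewer libraries in a group make non-overlap easier to reach. Leaving out libraries, the median log2 fold change ranged from -0.29 to -0.097 in complex III (-0.097 without old replicate 3) and from -0.18 to -0.013 in complex IV (-0.18 without old replicate 1). It ranged from -0.16 (without old replicate 1) to -0.027 (without old replicate 3) in complex I, from -0.15 (without old replicate 1) to -0.056 (without young replicate 3) in complex II and from -0.19 (without old replicate 1) to -0.039 (without old replicate 3) in complex V, and stayed below 0 in all 5. Over all members the median was -0.18 without old replicate 1 and -0.035 without old replicate 3, and 52 to 69 members were lower in old over all alternatives. Log2 fold changes near 0 crossed it when libraries were left out, with ranges of -0.0057 to 0.025 for Ndufv1, -0.073 to 0.024 for Sdhb, -0.068 to 0.069 for Uqcrc2, -0.14 to 0.052 for Atp5if1, -0.13 to 0.076 for Atp5mc2 and -0.0059 to 0.25 for Atp5mc2l2. Atp5mc2 was at 0.00033 with library size only. The cause of these changes was not tested. Members under 10 CPM, 10 of the 81, had too few counts for small differences to be detectable.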

Other observations

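Other genes known to be induced by low oxygen were looked at after the values of Ndufa4l2 and Cox4i2 had been seen, so the list carries no test. Of 15 such genes, 13 had a log2 fold change above 0, with a median of 0.68, beside 0.018 over all genes. All old libraries were above all young ones for 2 (Kdm3a and Vegfa), beside 14.5% of all genes, and the groups overlapped for 13. DESeq2 called 2 of the 15 as DEGs, Bnip3 and Vegfa, beside 5.56% of all genes. Summed, they held 1659, 1294 and 963 CPM in young replicates 1, 2 and 3 and 2873, 2684 and 1166 CPM in old replicates 1, 2 and 3. Old replicates 1 and 2 were above all young libraries, as they were for Cox4i2, and old replicate 3 lay within the young range. In both groups the sum fell from replicate 1 to replicate 3. Ldha alone gave 946, 659 and 427 CPM of the sum in young and 1481, 1205 and 460 CPM in old. Bnip3, which takes part in the removal of mitochondria, held 76.2, 52.4 and 27.5 CPM in young and 222, 178 and 55.7 CPM in old (log2 fold change 1.55 ± 0.57, adjusted p of 0.190 by edgeR and 0.0375 by DESeq2). Vegfa, the vascular growth factor, held 123.5, 146.0 and 134.3 CPM in young and 251.5, 461.3 and 260.0 CPM in old (1.27 ± 0.25, adjusted p of 0.0762 by edgeR and 0.000179 by DESeq2). Higd1a, a mitochondrial protein induced by low oxygen, held 73.3, 47.2 and 32.2 CPM in young and 145, 115 and 36.7 CPM in old (0.96 ± 0.53), and Car9, the surface carbonic anhydrase, had a log2 fold change of -0.14 ± 0.38. The oxygen level of the cultures is not given in the sources used here.

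Ndufa4l2 and Cox4i2 are also known from pericytes and other mural cells. Of 9 pericyte and mural genes, a list likewise written after those values had been seen, 5 were measured and 4 of them had a log2 fold change below 0. Mcam held 46.7, 83.3 and 137 CPM in young and 7.84, 7.64 and 6.08 CPM in old (-3.63 ± 0.41, adjusted p of 0.0531 by edgeR and 1.74e-17 by DESeq2), and Cspg4 had a log2 fold change of -1.40 ± 0.30. Pdgfrb, the receptor that marks mural cells and fibroblasts, had one of 0.32 ± 0.37.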
